A study of Mus musculus with 4 samples.

Results

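Ductal-like cells are 139 of the 13362 pancreas cells to which the authors gave a cell type, out of 21140 cells in the deposited counts, and they form cluster 14 of the authors' clustering. They were chosen by that deposited name alone, and 38 and 56 of them came from the 2 mice killed after 2 weeks of injury and 23 and 22 from the 2 mice killed after 4 weeks. All 4 mice carried Ptf1aCre-ERTM;ROSAYFP/+, in which the promoter of the acinar gene Ptf1a drives a tamoxifen-inducible Cre and the recombined Rosa allele makes the yellow fluorescent protein EYFP, on a background crossed back into CD-1. Acinar cells, which secrete the digestive enzymes, were marked by tamoxifen gavage at 5 mg per day, and the mice were 10 weeks old when injections of caerulein, a peptide that overstimulates acinar cells and causes pancreatitis, began. EYFP-positive cells were sorted and sequenced in droplets from the 3' end of the RNA. Every mouse received tamoxifen and caerulein, so the comparisons are between 2 and 4 weeks and between cell types of the same mouse, without an uninjured group.

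Pancreatic ducts carry the enzymes of the acini to the gut and add bicarbonate and water, which the chloride and bicarbonate channel Cftr helps to drive. Duct cells have a primary cilium and are held together by keratins and claudins, and their identity depends on transcription factors such as Sox9 and Onecut1. Injured acinar cells can lose enzyme expression and take on duct genes, a change called acinar-to-ductal metaplasia, and in this series a larger set of cells with gastric mucous genes was named MucinDuctal by the authors (3983 cells). Cells that kept the enzymes were named Acinar (3698 cells).

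Ductal-like cells were read deeply, except in 4-week mouse 1. Their median UMI count, a UMI being 1 counted RNA molecule, was 31156.5 and 38505.5 for the 2-week mice, and 8889 and 21039 for the 4-week mice. Summed over the cells of a mouse this gave 458126 to 2397650 UMIs, and levels are given below as CPM, counts scaled to the sum of the mouse and type. No barcode was shared between Ductal-like cells, and 1 Ductal-like barcode occurred in another library, of 67 barcodes that did so among all cells. Xist, the RNA of the inactive X chromosome, stood at 1043, 1183 and 1004 CPM in the first 3 mice and at 0 in 4-week mouse 2, which alone had RNA of the Y-linked genes Ddx3y (44.8 CPM) and Eif2s3y (63.1 CPM). The part of sex in the comparisons of time was not tested.

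The lineage mark was weaker in Ductal-like cells than in MucinDuctal cells. EYFP RNA was measured at 151, 194, 118 and 167 CPM in Ductal-like cells of the 2 2-week and then the 2 4-week mice. MucinDuctal cells held 402, 357, 451 and 442 CPM, so the 2 types did not overlap. Over all mice it came to 172 CPM, beside 403 CPM in MucinDuctal and 196 CPM in Acinar cells. A count of exactly 1 EYFP UMI was found in 8 of 38, 8 of 56, 15 of 23 and 8 of 22 Ductal-like cells, 28.1% of the 139. The same was true of 4.12% of MucinDuctal and 15.6% of Acinar cells. Types were given only to cells filtered as EYFP-positive, so none of the cells with a type lacked EYFP. For comparison, 1392 cells with 3 or more UMIs of B and T cell genes were taken, with no condition on their deposited type or EYFP. EYFP was detected in 218 of them, 15.7% (exact 95% interval 13.8 to 17.7), at a median depth of 3757 UMIs against 28570 in Ductal-like cells, and 87 of those 218 had a single EYFP UMI. As a level, the EYFP RNA of these 1392 cells came to 101, 121, 92.6 and 147 CPM, below Ductal-like cells of the same mouse but within 2-fold of them. Ductal-like cells were filtered on EYFP and the 1392 cells were not, so this order was favoured in advance. A count of 1 EYFP UMI therefore also occurs in cells with lymphocyte genes. Cells of any deposited type could enter this set, so it is not a background of lymphocytes alone. Whether every Ductal-like cell came from a marked acinar cell was not tested.

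The markers that come with the name, Krt19, Cftr, Spp1 and Ambp, were all present, and the Spp1 and Ambp levels of Ductal-like and MucinDuctal cells did not overlap. Spp1, the secreted phosphoprotein osteopontin that lies at chr5:104435111-104441053 (build GRCm38.p6), was measured at 18473 and 14799 CPM after 2 weeks, then 21942 and 20331 CPM after 4 weeks. Each of these values lay above that of MucinDuctal cells in every mouse (6241 to 9356 CPM), by 1.23 ± 0.48 on the log2 scale within a mouse (SD, n = 4 mice). In the 2-week mice the log2 ratios were 0.98 and 0.69. The rule used below asks for a log2 ratio of at least 1 in each mouse. By that rule Ambp is the 1 marker of the 4 counted as higher, beside 4.65% of all genes. Across the 8 deposited types the order of Spp1 was Ductal-like (18886 ± 3071 CPM), MucinDuctal (8073 ± 1476), Acinar/MucinDuctal (3729 ± 731) and the progenitors of tuft and enteroendocrine cells (2578 ± 1702). The last 2 overlapped in their spread, and the other types stood between 154 and 222 CPM.

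Ambp, which encodes the precursor of alpha-1-microglobulin and bikunin, a protease inhibitor (chr4:63143275-63154172), had 902, 496, 969 and 845 CPM. MucinDuctal cells held 25.1 to 70.8 CPM and Acinar cells 30.6 to 103 CPM, so no mouse overlapped, and the within-mouse difference to MucinDuctal cells was 4.15 ± 1.06 on the log2 scale. Enteroendocrine cells (119 ± 21.2 CPM) and Acinar/MucinDuctal cells (100 ± 12.0 CPM) came next and did not differ beyond their spread. Cftr (chr6:18170687-18322770) was measured at 25.8, 73.4, 28.4 and 48.9 CPM. It was above MucinDuctal cells within each mouse by 0.70 ± 0.32, while the levels of the 2 types overlapped between mice. Krt19, the keratin of simple ductal epithelium (chr11:100140810-100145926), was at 125, 460, 207 and 358 CPM. In this marker the order was the other way, with 556 ± 435 CPM in MucinDuctal against 288 ± 150 CPM in Ductal-like cells and a within-mouse difference of -0.80 ± 0.48. Both types had their highest Krt19 level in 2-week mouse 2.

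**Figure D1:**
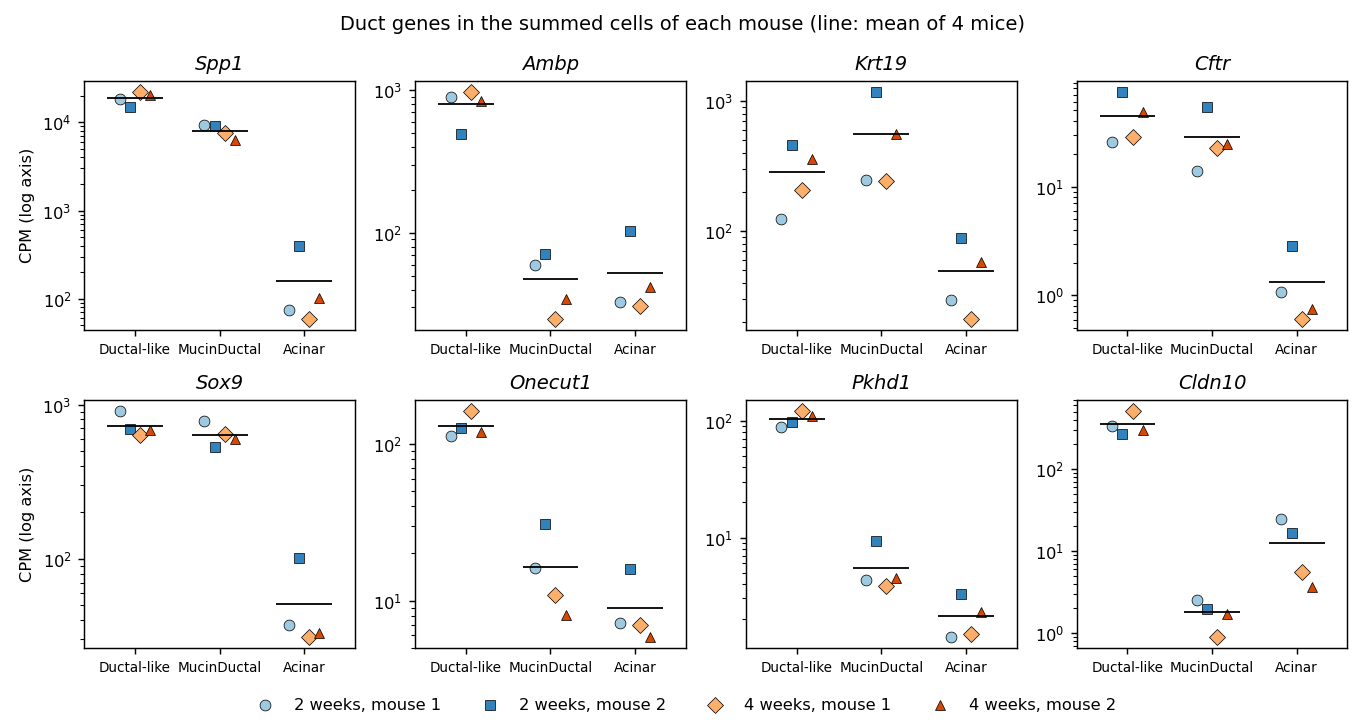
Level in CPM (log axis) of 8 duct genes in the summed cells of each mouse for Ductal-like, MucinDuctal and Acinar cells, with 1 symbol per mouse and a line at the mean of 4 mice. Ambp, Onecut1, Pkhd1 and Cldn10 of Ductal-like cells lie above both other types in all 4 mice, while Krt19, Cftr and Sox9 overlap with MucinDuctal cells.

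Cell by cell, Spp1 was found in 139 of 139 Ductal-like cells and Ambp in 137. Krt19 was found in 129 (92.8%) and Cftr in 83 (59.7%). In 1174 lymphocyte-gated cells without EYFP, at a median of 3514 UMIs, the shares were 40.4% for Spp1, 2.47% for Ambp, 4.51% for Krt19 and 0.256% for Cftr, given as a background. After thinning to 2000 UMIs, which left 136 Ductal-like cells (3 of 4-week mouse 1 were shallower) and 1061 lymphocyte-gated cells, Ductal-like and lymphocyte-gated cells had Spp1 in 100% and 24.3%, Ambp in 72.2% and 1.50%, Krt19 in 42.5% and 2.47%, and Cftr in 8.90% and 0.152%. All 4 markers were found together in 79 Ductal-like cells (56.8%) and 3 of them in 54, beside 12.2% of MucinDuctal cells with all 4. Each marker was thus found in a larger share of Ductal-like than of lymphocyte-gated cells, and this held at equal depth.

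The types had been separated on these same counts, so differences between them are given without a test, and a gene is counted as higher or lower where its within-mouse log2 ratio was at least 1 in that direction in each of the 4 mice. Genes entered at a mean of at least 10 CPM over the sums of both types, so a gene could enter through its level in 1 type alone. Of 8460 such genes, 393 (4.65%) were higher than in MucinDuctal cells and 26 (0.307%) lower. Without 2-week mouse 2 these counts were 770 and 158. Since the rule asks for each mouse, leaving out a mouse can only keep or raise them. The median log2 ratio over all genes was 0.31, and trimmed-mean scaling, which shifts it to -0.13, gave 249 higher and 94 lower. Against Acinar cells 5353 of 7374 genes (72.6%) were higher and 100 (1.36%) lower, with a median of 1.91. Enzyme genes made up 627448 ± 46699 CPM of Acinar cells. With trimmed-mean scaling the median fell to -0.08, and 592 genes were higher and 459 lower, so ratios to Acinar cells have to be read against 1.91.

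Of 21 duct identity genes measured besides the 4 markers, 5 were higher than in MucinDuctal cells in all mice, beside 4.65% of all genes, and none was lower, beside 0.307%, with a median log2 ratio of 0.26, close to that of all genes. Sox9, the transcription factor of duct progenitors, was measured at 910, 696, 631 and 682 CPM, and MucinDuctal cells held 639 ± 105 CPM. The log2 difference of 0.19 ± 0.17 turned to -0.25 with trimmed-mean scaling. Keratins Krt7 (113 ± 26.7 against 108 ± 83.7 CPM) and Krt18 (1845 ± 340 against 1615 ± 383 CPM) overlapped as well. The 5 higher genes were Pkhd1, Bicc1, Ptprf, Wfdc15b and Dcdc2a. All 21 were higher than in Acinar cells, beside 72.6% of all genes, with a median of 3.59. With trimmed-mean scaling, Krt7 against Acinar cells turned to -0.0863.

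The genes of the primary cilium and of polycystic disease included several duct genes. Of 19 listed, 10 had enough counts, and 5 of these were higher than in MucinDuctal cells (Pkhd1, Cys1, Ift57, Bicc1 and Dcdc2a), beside 4.65% of all genes, with a median log2 ratio of 1.45 against 0.31 over all genes. Pkhd1, which encodes fibrocystin and is mutated in recessive polycystic kidney and liver disease, had 89.7, 98.0, 122 and 110 CPM. MucinDuctal cells had 5.47 ± 2.56 CPM of it and the values of the 2 types lay far apart in each mouse. Dcdc2a, a microtubule-binding protein of the cilium, had 349, 234, 504 and 440 CPM against 14.3 ± 10.4. Bicc1, an RNA-binding protein whose loss causes cystic ducts, had 449, 288, 354 and 283 CPM against 29.6 ± 22.7. Ift57, part of the transport machinery inside the cilium, was higher by 1.97 ± 0.53. Foxj1, a regulator of motile cilia, was low but present in every mouse, at 9.12, 23.4, 15.3 and 26.5 CPM, and was found in 28.1% of Ductal-like cells against 0.829% of MucinDuctal cells (median depth 17998 UMIs) and 0.0852% of lymphocyte-gated cells.

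Transcription factors of the duct and foregut were higher than in MucinDuctal cells in 3 of 19 cases, beside 4.65% of all genes, with a median of 0.26. Prox1, a homeodomain factor of early pancreas and liver (chr1:190118035-190170827), had 293, 195, 487 and 293 CPM against 4.64 ± 1.94 in MucinDuctal cells. It was not confined to ducts, with 170 ± 28.5 CPM in enteroendocrine cells, 100 ± 60.5 in their progenitors and 70.9 ± 5.17 in tuft cells. Onecut1, a factor of developing ducts, had 113, 126, 164 and 120 CPM against 16.5 ± 10.2. Nr5a2, a nuclear receptor best known from acinar cells, had 106, 74.2, 155 and 104 CPM against 21.1 ± 6.41 in MucinDuctal cells and 49.9 ± 17.2 in Acinar cells. Of 10 Notch and Hippo-YAP genes 3 were higher, beside 4.65% of all genes, namely the receptor Notch2 by 2.38 ± 0.45 and the YAP targets Ankrd1 by 2.71 ± 0.49 and Amotl2 by 2.34 ± 0.45. The lymphocyte-gated cells held 27.1 CPM of Notch2 beside 40.0 ± 7.78 in Ductal-like cells, and 1.24 CPM or less of the other 2 genes.

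Of 20 ion transport genes that make duct fluid, 1 was higher than in MucinDuctal cells, beside 4.65% of all genes, none was lower, beside 0.307%, and the median was -0.06. The higher gene was the potassium channel Kcnma1 (19.0, 17.5, 34.9 and 12.2 CPM against 0.322 ± 0.0663). The bicarbonate cotransporter Slc4a4 was at 53.8 ± 20.3 CPM in Ductal-like and 56.9 ± 11.5 CPM in MucinDuctal cells. Carbonic anhydrase Car2 had 388, 363, 177 and 230 CPM against 919 ± 191, all 4 values below the MucinDuctal mean. Sctr, the receptor for the hormone that makes ducts secrete, was at 27.1 ± 6.82 against 13.0 ± 1.76 CPM. Against Acinar cells, 16 of 18 were higher, beside 72.6% of all genes.

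Claudins, the strand proteins of tight junctions, differed in kind. Cldn10, which forms paracellular ion pores (chr14:118787871-118874525), came first by the rule for leading genes given below, with 331, 267, 511 and 299 CPM against 1.78 ± 0.688 CPM. It was found in 94.2% of Ductal-like cells, 1.78% of MucinDuctal cells and 1.53% of lymphocyte-gated cells. The next level among the types was 23.9 ± 7.79 CPM in Acinar/MucinDuctal cells. Cldn3 was higher by 3.37 ± 1.47 and Cldn6 by 4.50 ± 1.34. Cldn18, the claudin of stomach and lung epithelium, was lower, with 4.56, 5.00, 8.73 and 28.5 CPM against 45.5 ± 21.1 in MucinDuctal cells. Of the 19 keratin and junction genes, these were the 3 higher, beside 4.65% of all genes, and the 1 lower, beside 0.307%.

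Among the lists, genes known from liver secretion had the highest median log2 ratio to MucinDuctal cells. Lists and members were chosen with earlier results of these data known, and the part of that choice in this rank was not tested. The list includes Ambp, a marker that comes with the name, and Trf and Cp, which had enough counts through their Ductal-like level. Of 18 such genes listed, 7 had enough counts and 6 were counted as higher than in MucinDuctal cells, beside 4.65% of all genes. These 6 were Ambp, Alb, Apoe, Trf, Vtn and Cp, and the median over the 7 was 4.97. Vtn belongs to this count only through the 0.5 added to every count, since it had 0, 0.417, 109 and 0 CPM; it was the only one of the 393 without a UMI in some mouse. Apoe, a lipid carrier, had 2830, 1743, 2705 and 3065 CPM against 70.3 ± 26.1 CPM, and 1315 CPM in lymphocyte-gated cells. Trf, the iron carrier transferrin, had 273, 264, 382 and 356 CPM against 3.06 ± 0.726. Cp, the copper-binding ferroxidase ceruloplasmin, had 629, 661, 834 and 511 CPM against 7.21 ± 2.38. Albumin itself was low and even, at 44.1, 55.5, 54.6 and 42.8 CPM.

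By the rule of the largest smallest ratio among genes of at least 50 CPM, the 15 leading genes were Cldn10, Mme, Lcn2, Trf, Snorc, Cp, Fxyd1, Prox1, Tm4sf1, Wfdc3, Apoc1, C3, Apoe, Agt and Gc. Lcn2, a siderophore-binding protein of the innate response (chr2:32384637-32387739), had 874, 1369, 939 and 933 CPM against 9.52 ± 5.69 in MucinDuctal and 2.11 ± 1.09 in Acinar cells. It was found in 95.7% of Ductal-like cells, 6.33% of MucinDuctal cells and 0.596% of lymphocyte-gated cells. C3, the central complement protein, was even across mice at 453, 472, 406 and 442 CPM, and MucinDuctal cells had 11.0 ± 5.06. Apoc1, a lipoprotein component that lies close to Apoe on chromosome 7, had 776, 392, 600 and 495 CPM. Mme, the membrane peptidase neprilysin, had 107, 33.8, 63.3 and 71.3 CPM and Tm4sf1, a tetraspan-like membrane protein, 281, 131, 489 and 314 CPM, both with 2.99 CPM or less on average in MucinDuctal and in Acinar cells. Agt, angiotensinogen, had 53.5 ± 20.5 CPM but was higher in tuft cells, at 116 ± 23.2 CPM. For the iron and acute-phase genes Lcn2, Cp and Trf the next type was Acinar/MucinDuctal with 57.1 ± 17.0, 42.0 ± 16.9 and 25.7 ± 9.47 CPM.

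**Figure D2:**
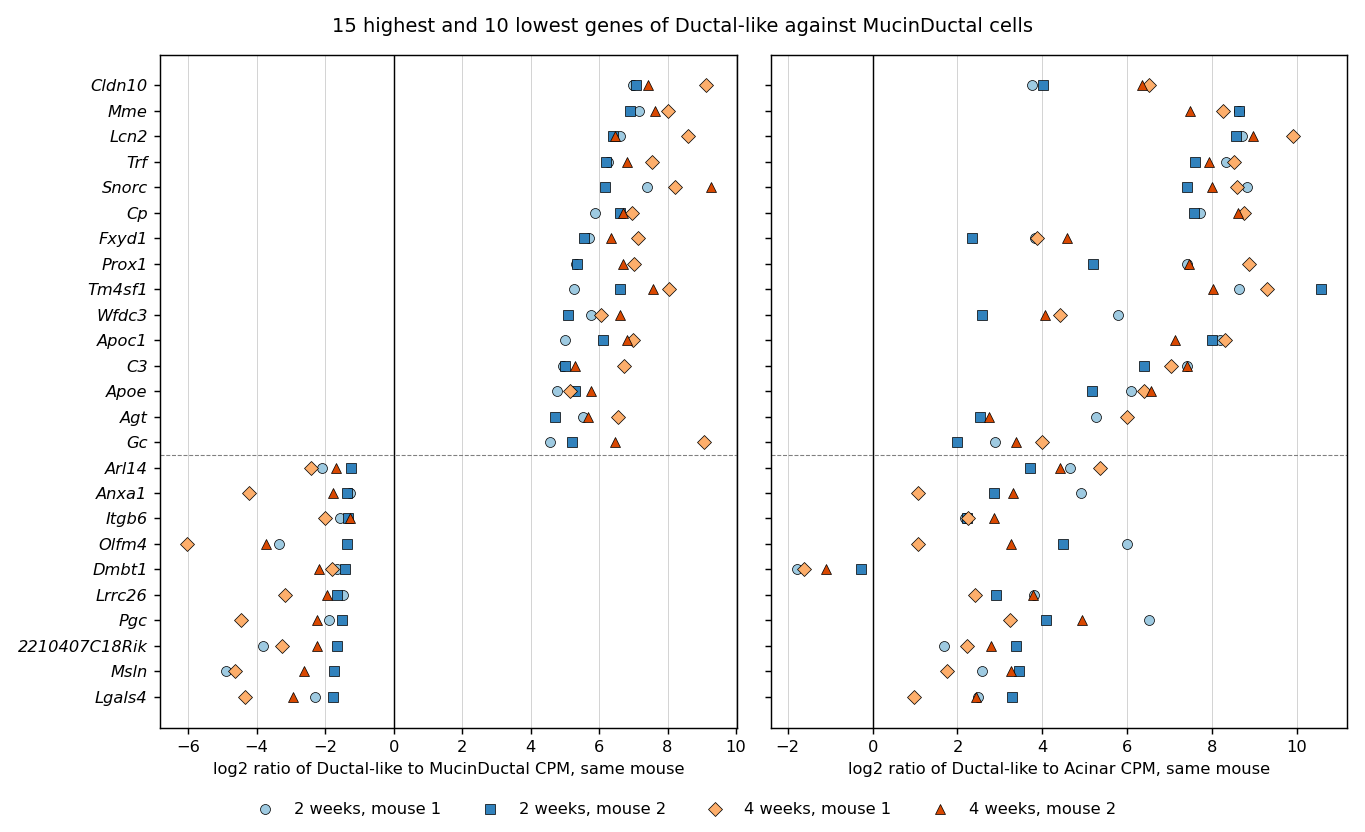
Log2 ratio of Ductal-like CPM to MucinDuctal CPM (left) and to Acinar CPM (right) in each mouse, 1 symbol per mouse, for the 15 genes that led upward and the 10 that led downward against MucinDuctal cells. The 15 upper genes lie above 4 in every mouse on the left, and the 10 lower genes lie below -1 in every mouse on the left, all but Dmbt1 above 0 on the right.

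Gastric mucous genes were present in Ductal-like cells, with a negative median log2 ratio to MucinDuctal cells, and were very uneven between mice. None of the 17 mucin and metaplasia genes measured was higher, beside 4.65% of all genes, and 3 (Dmbt1, Pgc and Olfm4) were lower in all mice, beside 0.307%, with a median of -1.46. Mean log2 ratios of the 17 ran from -3.62 to 0.73. Gkn3, a gastrokine of mucous neck cells, had 14610, 10619, 4121 and 8884 CPM against 48109 ± 20672. Tff2, the trefoil factor that marks this metaplasia, had 5867, 8109, 1292 and 4212 CPM against 34953 ± 16624. For Muc6, the gland mucin, the values were 1441, 1377, 299 and 727 CPM against 4384 ± 1875. Gkn3, Tff2 and Muc6 were not counted as lower by the rule, and all 3 were lowest in 4-week mouse 1. Pgc, pepsinogen C, ranged from 436 CPM in 2-week mouse 2 to 15672 CPM in 2-week mouse 1. These sums rest on few cells. One cell held 1062 of 1386 Pgc UMIs in 4-week mouse 1 (76.6%), and 1 cell 1884 of 3156 in 4-week mouse 2 (59.7%). In 2-week mouse 1 the median cell had 28 of 20614 Pgc UMIs and 16.5 of 7717 Tff2 UMIs, and 1 cell held 2766 of the latter. For Gkn3 in 4-week mouse 1, 1 cell held 888 of 1888 UMIs (47.0%). In lymphocyte-gated cells Gkn3 was at 756, Tff2 at 1031 and Muc6 at 89.5 CPM, so that Tff2 in 4-week mouse 1 came near the lymphocyte-gated level. The 12 pit-type genes summed to 246, 551, 109 and 346 CPM against 842 ± 61.6 in MucinDuctal and 45.2 ± 23.5 CPM in Acinar cells. Of the 5 with enough counts none was counted as higher or lower than in MucinDuctal cells, with a median of -1.81, and 3 (Foxq1, Ctse and Vsig1) were higher than in Acinar cells, beside 72.6% of all genes. Tff1, a trefoil factor of pit cells, had 1.52, 100.1, 0 and 28.5 CPM and was found in 26 of 56 cells of 2-week mouse 2 (46.4%, beside 44.2% of MucinDuctal cells there), while Gkn1 and Muc5ac were at 2.28 CPM or less in each mouse. Besides Pgc, Dmbt1 and Olfm4, the 10 leading genes downward were Lgals4, Msln, 2210407C18Rik, Lrrc26, Itgb6, Anxa1 and Arl14. Lgals4, a gut galectin, had 3.80, 97.6, 0 and 18.3 CPM and Itgb6, an epithelial integrin, 16.0, 36.7, 13.1 and 26.5 CPM.

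Enzyme RNA was low, and 3 of 7 acinar transcription factors were lower than in Acinar cells. All 31 enzyme genes measured were lower than in Acinar cells, beside 1.36% of all genes, with a median log2 ratio of -4.83 against 1.91 over all genes. The summed enzymes took 33414, 29447, 125378 and 32347 CPM against 627448 ± 46699 in Acinar cells. MucinDuctal cells took 33691 ± 7051 and lymphocyte-gated cells 43066 ± 16758 CPM, so 3 of the 4 mice lay near or below the sum of lymphocyte-gated cells. That sum was itself uneven, with 58.2% of the Ctrb1 UMIs of the gated cells of 2-week mouse 2 in 1 cell. The high value of 4-week mouse 1 came from few cells, since 1 cell held 36746 of its 57439 enzyme UMIs. Ptf1a, the acinar master factor whose promoter drove the Cre, had 3.04, 5.00, 8.73 and 10.2 CPM against 57.6 ± 12.8 in Acinar cells and 1.87 in lymphocyte-gated cells. It was found in 9.35% of Ductal-like and 0.852% of lymphocyte-gated cells. Of the 7 acinar transcription factors, 3 (Ptf1a, Rbpjl and Bhlha15) were lower than in Acinar cells and none was higher, beside 1.36% and 72.6% of all genes, with a median of -0.20 against 1.91 over all genes. Their summed level overlapped, at 528, 541, 570 and 483 CPM against 576 ± 121 CPM in Acinar cells. Bhlha15, the secretory factor Mist1, had 21.3, 26.7, 21.8 and 10.2 CPM against 79.1 ± 15.7.

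Immune-type genes were higher in part. Of 8 chemokine and inflammatory genes measured 5 were higher than in MucinDuctal cells (Cxcl1, Il1rn, Lcn2, C3 and Tgfb2), beside 4.65% of all genes, with a median of 3.38. Cxcl1, a neutrophil chemokine, rested on fewer than 3 UMIs in each 4-week mouse. Il1rn, the antagonist of the interleukin-1 receptor, had 44.1, 55.5, 50.2 and 55.0 CPM against 9.19 ± 9.43. Of 23 interferon and MHC genes 5 were higher, beside the same 4.65% (H2-Q4, H2-Q7, Cd74, H2-Aa and H2-Ab1). Cd74, the chaperone of MHC class II, had 709, 291, 89.5 and 694 CPM against 83.7 ± 45.7, and 6995 CPM in lymphocyte-gated cells. The 10 lymphocyte genes summed to 10.6, 7.09, 6.55 and 114 CPM, with 1 of them at 0 in all mice, against 11.0 ± 8.92 in MucinDuctal and 5101 ± 755 in lymphocyte-gated cells, and 1 cell held 54 of the 56 UMIs of 4-week mouse 2. The 10 myeloid genes summed to 167, 57.6, 39.3 and 224 CPM and were highest in the same 2 mice as Cd74. Their part in the MHC class II values was not tested. Isg15, an interferon-induced protein, had 1075, 7.51, 87.3 and 26.5 CPM and so was high in 2-week mouse 1 alone.

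Hormone RNA was carried by a few cells. Ghrl, ghrelin, had 8005 CPM in 2-week mouse 1 and 36.7 to 67.7 CPM in the others, and 2 cells held 5491 and 4196 of the 10885 hormone UMIs of that mouse. Somatostatin, Sst, had 2246 CPM in 4-week mouse 2, where 1 cell held 1594 of 1630 hormone UMIs. Neurog3, the factor that starts endocrine differentiation, had 40.3, 32.9, 2.18 and 73.3 CPM against 3.29 ± 3.86 in MucinDuctal cells, the third value from under 3 UMIs. It was detected in 13 of the 139 cells, and single cells held 47 of 53, 47 of 79 and 36 of 36 UMIs in the other 3 mice. In all, 15 of the 139 cells had a mixed content, defined after seeing the data as 100 or more hormone UMIs (7 cells), 3 or more lymphocyte UMIs (4), 10 or more myeloid UMIs (4) or over 20% enzyme UMIs (1), of which a cell can meet more than 1. Stromal, endothelial and mesothelial genes summed to 357, 357, 264 and 442 CPM against 99.6 ± 62.3 in MucinDuctal cells. Most of this in each mouse was Rgs5, a G-protein regulator best known from pericytes, with 341, 231, 236 and 405 CPM. Of 3 measured, Rgs5 was the 1 higher, beside 4.65% of all genes, and Msln, known from mesothelium, the 1 lower, beside 0.307%.

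Many UMIs of proliferation genes were carried by a minority of cells. Of 16 measured, 0 were counted as higher than in MucinDuctal cells, beside 4.65% of all genes. Their median log2 ratio was 1.90 against 0.31 over all genes. Over 10 proliferation genes, 10 or more UMIs were found in 9 of 38, 3 of 56, 1 of 23 and 4 of 22 cells, 12.2% in all, from 4.35% to 23.7% by mouse. MucinDuctal cells reached this in 1.71% and Acinar cells in 4.35%, with lower median depths of 17998 and 27362.5 UMIs. The share was above that of MucinDuctal cells in each mouse, and exact 95% intervals, which cover counting error only, were apart in 2-week mouse 1 (23.7% against 1.08%) and 4-week mouse 2 (18.2% against 0.554%). These shares were not thinned, and the part of depth was not tested. Mki67, a marker of cycling nuclei, had 68.4, 7.09, 17.5 and 34.6 CPM.

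Ductal-like cells were divided into those with 1 EYFP UMI and those with 2 or more. Spp1 averaged 24673 CPM in the former and 16659 CPM in the latter, Ambp 1032 and 716 CPM, and Cldn10 551 and 278 CPM, in the same order in each mouse. The markers Krt19 (407 and 262 CPM) and Cftr (58.9 and 35.9 CPM) had this order on average but not in each mouse. Krt19 was reversed in 4-week mouse 1 (201 and 212 CPM) and Cftr in 2-week mouse 2 (55.6 and 75.5 CPM). Lcn2 was also reversed in 4-week mouse 1 (906 and 960 CPM), and Cp in 4-week mouse 2 (484 and 526 CPM). Pgc had 169, 452, 993 and 301 CPM in cells with 1 EYFP UMI and 19403, 434, 4393 and 9659 CPM in cells with 2 or more. Gkn3 had 1658, 12210, 1172 and 554 CPM against 17727, 10432, 6106 and 13277 CPM. As sums, both genes were higher with more EYFP in every mouse but 2-week mouse 2, where Gkn3 and Pgc were slightly lower. Muc6 had 90.1, 623, 250 and 136 against 1766, 1466, 332 and 1039 CPM, and so was higher with more EYFP in all 4 mice, as was Agr2, a folding factor of mucins. Tff2 had 98.0, 15258, 1275 and 773 against 7255, 7270, 1304 and 6026 CPM, and so was lower in 2-week mouse 2 and nearly equal in 4-week mouse 1. Several of these directions rest on 1 cell, by a check chosen after seeing the data that leaves out, in each group and mouse, the cell with most UMIs of the gene. In 4-week mouse 1, Pgc was then at 741 CPM with 1 EYFP UMI and 673 CPM with more, Muc6 at 228 and 95.5 CPM and Tff2 at 1106 and 1069 CPM, so that all 3 were lower with more EYFP. In 2-week mouse 2 the order of Gkn3 (5150 and 9301 CPM), Pgc (165 and 322 CPM) and Tff2 (978 and 5609 CPM) turned to higher with more EYFP. Spp1, Ambp, Cldn10 and Agr2 kept their direction in all 4 mice by this check. By the median cell, however, Spp1 in 4-week mouse 1 had 18931 CPM with 1 EYFP UMI and 20040 CPM with more. A4gnt, the enzyme that caps gland mucin with a terminal sugar, had 0, 0, 5.43 and 5.90 CPM with 1 EYFP UMI. With more EYFP it had 74.5, 24.7, 14.6 and 9.33 CPM. These levels rest on 2 UMIs in all cells with 1 EYFP UMI and 139 UMIs in the rest, which hold more RNA in sum. Of the 139, 79 and 53 came from the 2-week mice and 4 and 3 from the 4-week mice. The split follows a count that rises with depth, and the part of depth was not tested. Duct-marker cells to which the authors gave no type and in which no EYFP was counted had 211, 3196, 885 and 1367 CPM of Gkn3. Since Ambp was among the genes that chose these cells, its level there follows from the choice.

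**Figure D3:**
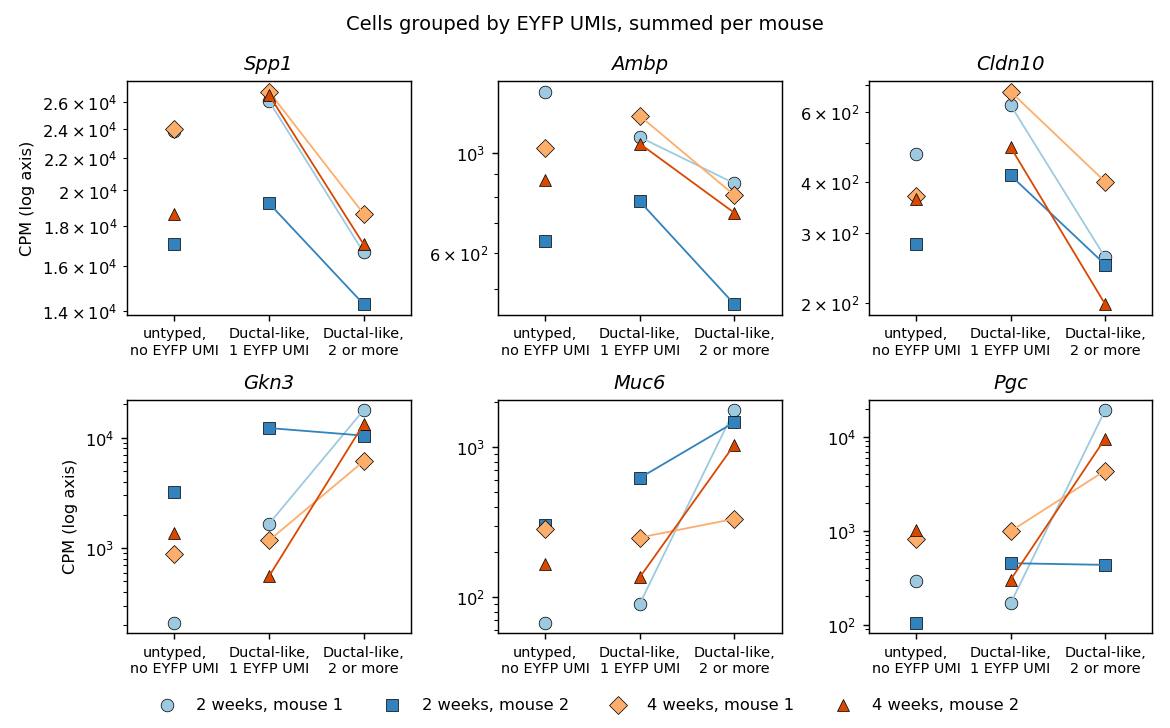
Level in CPM (log axis) of 6 genes in each mouse, for cells without a type and without EYFP UMI that hold at least 3 of 4 duct genes, for Ductal-like cells with 1 EYFP UMI and for Ductal-like cells with 2 or more, lines joining the Ductal-like cells of a mouse. Spp1, Ambp and Cldn10 fall from the middle to the right group in all 4 mice, Gkn3 and Pgc rise in 3 of 4, and Muc6 rises in all 4. The rises of Pgc and Muc6 in 4-week mouse 1, and the falls of Gkn3 and Pgc in 2-week mouse 2, turn when the cell with most UMIs is left out of each group.

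The share of Ductal-like cells was lower at 4 weeks in both mice. Among cells with a type, the 2-week mice gave 1.27% (exact 95% interval 0.903 to 1.74) and 1.56% (1.18 to 2.02). The 4-week mice gave 0.817% (0.519 to 1.22) and 0.554% (0.347 to 0.837). The means were 1.42 ± 0.20% and 0.685 ± 0.187% (SD, n = 2 mice each), a difference of -0.731 percentage points. The 2 groups of mice did not overlap, and the two-sided exact permutation test gave p = 0.33, the smallest value that 2 against 2 mice allow. Of Ductal-like and MucinDuctal cells together, Ductal-like cells were 9.29%, 3.88%, 2.34% and 1.71%. With only cells of 2 or more EYFP UMIs the shares were 1.15%, 1.48%, 0.347% and 0.444%. These intervals cover counting error only, and sorting decides which cells enter the denominator. No cell with a type lacked EYFP, and the EYFP count of a cell rises with depth. Ductal-like cells had a lower median depth in the 4-week mice (8889 and 21039 UMIs) than in the 2-week mice (31156.5 and 38505.5 UMIs). Duct-marker cells without a type and without EYFP numbered 50, 32, 56 and 32, with the 2-week mice first. The part of depth in the lower share was not tested.

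**Figure D4:**
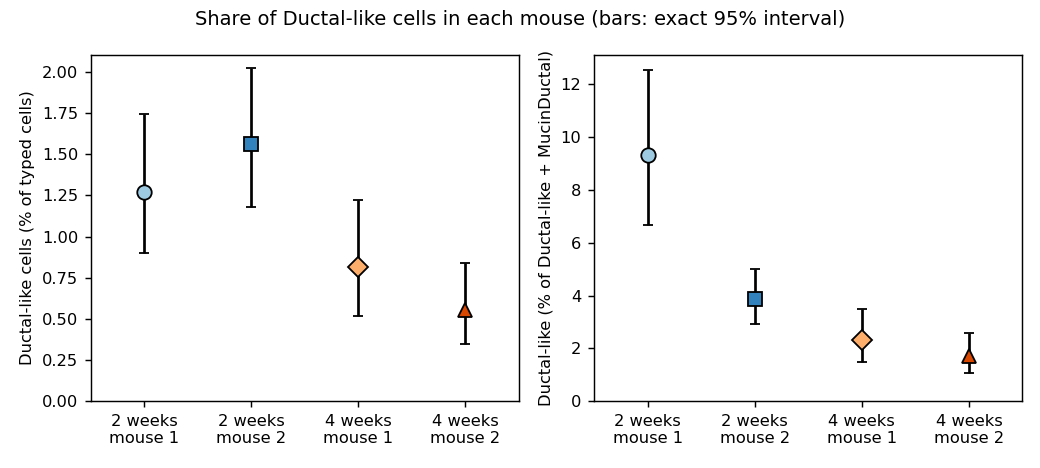
Ductal-like cells in each mouse as a percentage of all typed cells (left) and of Ductal-like plus MucinDuctal cells (right), with exact 95% intervals as bars. Both 4-week mice lie below both 2-week mice in each panel, at 0.817% and 0.554% on the left and at 2.34% and 1.71% on the right.

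Between 2 and 4 weeks no gene of Ductal-like cells changed past an adjusted p of 0.05. Of 8748 genes tested with edgeR's quasi-likelihood test on the sums of each mouse, 0 (0%) passed, DESeq2 called 0 as well, and 461 (5.27%) had an unadjusted p under 0.05. The count depended on single mice, with 230 calls without 2-week mouse 1, 106 without 2-week mouse 2, 2 without 4-week mouse 1 and 0 without 4-week mouse 2. Each of these fits, and those of the interactions below, leaves 1 mouse in a group, which is assumed to vary like the other group. Both 4-week mice lay above both 2-week mice in 1559 genes (17.8%) and below in 1469 (16.8%).

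Rtn1, a reticulon of the endoplasmic reticulum known from neuroendocrine cells, came closest, with 16.7 and 18.8 CPM at 2 weeks and 65.5 and 69.2 CPM at 4 weeks. Its log2 fold change was 1.92 with a standard error of 0.28 and an adjusted p of 0.264 in edgeR. Meg3, an imprinted noncoding RNA, had 190 and 142 CPM and then 330 and 458 CPM. Pclaf, a partner of the replication clamp PCNA, had 39.5 and 25.9 CPM and then 80.8 and 83.5 CPM. In each of these the groups were apart, as they were for Ddit4l and Lars2, the others with the smallest p. In the other direction stood Neurod1, an endocrine transcription factor, with 19.0 and 23.8 CPM at 2 weeks and 0 at 4 weeks, where the sums were shallow. Acp5, Klhl21, C1galt1 and Golm1 were also lower in both 4-week mice. Golm1, a membrane protein of the Golgi, had 124 and 141 CPM and then 34.9 and 67.2 CPM, and C1galt1, which builds the core of mucin-type sugars, 85.1 and 108 CPM and then 28.4 and 44.8 CPM.

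**Figure D5:**
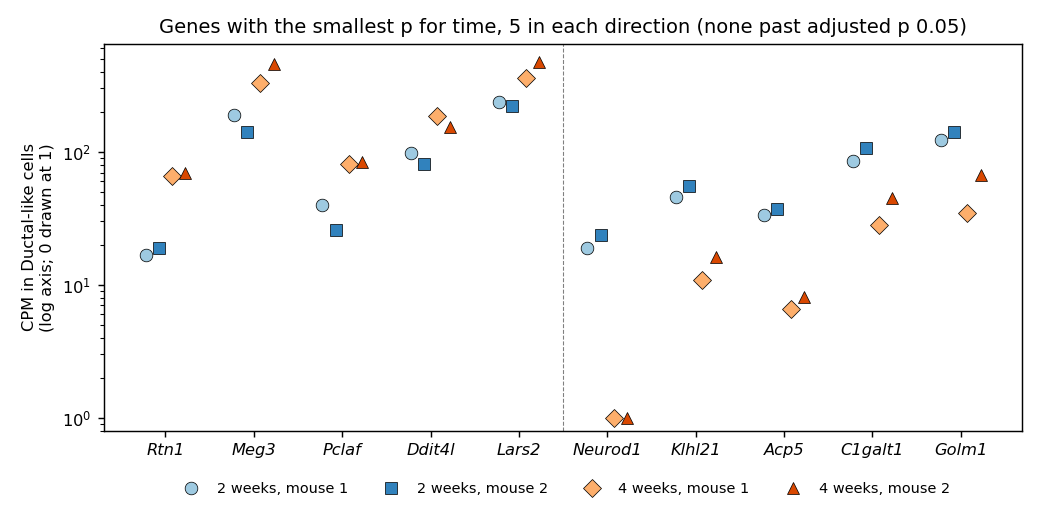
Level in CPM (log axis, 0 drawn at 1) in Ductal-like cells of each mouse for the 10 genes with the smallest p for time among those whose groups do not overlap, 5 in each direction. None passed an adjusted p of 0.05, and Rtn1 shows the tightest groups, with 16.7 and 18.8 CPM at 2 weeks and 65.5 and 69.2 CPM at 4 weeks.

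By group, mucous and folding genes lay lower in both 4-week mice in 10 of 16 and 12 of 17 cases, beside 16.8% of all genes. Of 16 mucin and metaplasia genes tested none passed, and 10 (Tff2, Muc6, Gkn3, Aqp5, Cd44, Glipr1, Muc1, Agr2, Spdef and Creb3l1) had both 4-week mice below both 2-week mice, with a median log2 fold change of -0.84 against -0.01 over all genes. Of 17 ER stress and folding genes none passed and 12 lay lower in both 4-week mice, among them the chaperone Hsp90b1 with 744, 818, 517 and 699 CPM, with a median of -0.44. Of the 4 markers none passed, and Spp1 lay higher in both 4-week mice. Of 20 bicarbonate and fluid transport genes none passed, 9 lay lower and 2 higher. Of 21 other duct identity genes none passed, 7 lay lower (among them Sox9 and Car2) and 3 higher. Among cilium genes none passed, and 3 of 13 (Pkhd1, Ift88 and Dcdc2a) lay higher, beside 17.8% of all genes, and none lower. The share of cells with 1 EYFP UMI, the depth of 4-week mouse 1 and the Y-linked RNA of 4-week mouse 2 move with these values, and their part was not tested.

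Whether time acted differently in Ductal-like than in other cells was tested as an interaction of type and time with the mouse as a block. Against MucinDuctal cells 0 of 13090 genes (0%) passed in edgeR, 842 (6.43%) had an unadjusted p under 0.05, and DESeq2 called 14. In plain CPM the ratio of the types lay higher in both 4-week mice for 26.4% and lower for 11.8% of genes. With the trimmed-mean scaling of the edgeR fit the median log2 interaction over all genes was -0.0539. Leaving out 2-week mouse 1 gave 557 calls and leaving out 2-week mouse 2 gave 53. Cblif, gastric intrinsic factor, had the smallest adjusted p, 0.0603, with a log2 interaction of -2.96 (SE 0.34). Its Ductal-like levels were 2180 and 80.9 CPM, then 216 and 224 CPM, and its MucinDuctal levels 5297, 132, 4132 and 2347 CPM. On the other side, Hspb1, a small heat-shock protein, had 41.8, 84.2, 50.2 and 134 CPM against 40.9, 91.1, 12.3 and 23.0 CPM (interaction 2.22, SE 0.29, adjusted p 0.0648).

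Against Acinar cells 17 of 13231 genes (0.128%) passed, 9 (0.068%) with a higher and 8 (0.0605%) with a lower ratio at 4 weeks, and 736 (5.56%) had an unadjusted p under 0.05. In plain CPM the ratio lay higher in both 4-week mice for 44.2% and lower for 3.27% of genes. The edgeR fit uses trimmed-mean scaling, and its median log2 interaction over all genes was -0.0708. Summed enzymes took 597808 and 578270 CPM of Acinar cells at 2 weeks and 675201 and 658513 CPM at 4 weeks. Their part in the 44.2% was not tested, so this share is not read as a shift of the genes. DESeq2 called 6, and the count was 283 and 63 without the first and the second 2-week mouse and 10 and 5 without the first and the second 4-week mouse. For Cldn10, Acinar cells held 24.6 and 16.5 CPM at 2 weeks and 5.55 and 3.67 CPM at 4 weeks, while Ductal-like cells held 331, 267, 511 and 299 CPM (log2 interaction 2.05, SE 0.30, adjusted p 5.3e-05). Pclaf had 6.89, 3.74, 1.46 and 1.23 CPM in Acinar cells, against the Ductal-like values given above (2.79, SE 0.39). Cym, the milk-clotting protease chymosin, went the other way, with 185 and 1845 CPM and then 2.18 and 10.2 CPM in Ductal-like cells and 13.8, 117, 12.1 and 45.8 CPM in Acinar cells (-6.61, SE 0.47, adjusted p 1.28e-13). A4gnt, of the mucous program, had 60.1, 22.1, 10.9 and 8.15 CPM in Ductal-like cells and 1.29 CPM or less in Acinar cells (-3.31, SE 0.65). Alox5ap and Rgs13, both abundant in tuft cells, were at 12.9, 50.9, 2.18 and 0 CPM and at 8.36, 78.0, 2.18 and 0 CPM. The 20 tuft genes summed to 956, 1426, 572 and 743 CPM in Ductal-like cells, but this includes Cd24a, which is also on the centroacinar list. Without Cd24a the tuft genes had 190, 1262, 12 and 56 UMIs, and 1 cell held 113 of the 190 in 2-week mouse 1. The part of tuft RNA in the values of Alox5ap and Rgs13 was not tested.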

How the data were processed

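Raw UMI counts per gene and cell were deposited by the authors for 4 mice, without normalization, with cell type names. Cell Ranger 4.0.0, Seurat 3.2.3 and the build mm10 are named per the submitters' processing notes. The smallest cell held 1000 UMIs. Counts of each type were summed per mouse, 458126 to 2397650 UMIs in Ductal-like cells, and 0.5 was added for log2 ratios. Time and interactions were fitted with edgeR 4.0.16 (quasi-likelihood, robust, TMM, filterByExpr) under R 4.3.3, adjusted after Benjamini-Hochberg over all genes at 0.05. Here p-values measure the spread between mice, 2 per time. In simulated counts 142 of 200 genes changed 4-fold were recovered among 8748 over time, with 5 false calls, 98 of 200 among 13090 for the MucinDuctal and 79 of 200 among 13231 for the Acinar interaction. Every simulated gene had the same dispersion and no mouse effect was put in. These shares therefore do not measure the recovery in the real sums, which was not tested.

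Named genes are those of 25 lists, the 15 highest and 10 lowest by the least favourable mouse at 50 CPM, and, over time, 5 per direction by p at 10 CPM among groups that do not overlap (up to 10 where at least 3 passed). Some genes are not reported here and were left out of the lists. Members, lists and tests were chosen with earlier results of these data known. Scrublet called 34 of 21140 cells (0.161%), too few to have worked, so no doublet was removed. As an alternative, 905 cells of highest score were left out, 7 of them Ductal-like, of which 6 were among the 38 of 2-week mouse 1. The median score was 0.0591 in Ductal-like cells and 0.0353 in MucinDuctal and in Acinar cells. Other alternatives were DESeq2 1.42.0, other scalings, no filter, no enzymes, thinning to 2000 UMIs and leaving out each mouse. Intervals are exact (Clopper-Pearson).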

Additional observations from a re-analysis of the deposited data

Results flagged for a closer look

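These genes had a time effect that differed between Ductal-like and Acinar cells by the interaction test of edgeR, and the values are differences of log2 fold changes. The ratio of Ductal-like to Acinar cells was higher at 4 weeks for Hist1h2ap (2.16), Pclaf (2.79), Cldn10 (2.05), Klf6 (1.75), Rian (2.87), Fam3c (2.35) and Basp1 (1.36). It was lower for Cym (-6.61), Hsd17b13 (-2.54), Alox5ap (-4.92), Cblif (-1.84), A4gnt (-3.31), Golim4 (-1.40) and Rgs13 (-4.38). Without 4-week mouse 2 the calls of 12 of these 14 genes were lost, and without 4-week mouse 1 those of 8. A fit that is not robust lost 8 of the 14, leaving out cells of mixed content 6, DESeq2 5 (with no adjusted p for 4 others) and keeping cells with at least 2 EYFP UMIs 4.

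Cells without a deposited type held a duct signal outside the comparisons. Among 7778 such cells, 192 (2.47%) had at least 3 of Ambp, Cftr, Krt7 and Pkhd1, a rule chosen after seeing the data, as 114 of the 139 Ductal-like cells (82.0%) did. The rule was not particular to Ductal-like cells. It was also met by 582 of 3983 MucinDuctal (14.6%), 136 of 3698 Acinar (3.68%) and 134 of 1955 Acinar/MucinDuctal cells (6.85%). Of the 192, 170 had no EYFP UMI (50 and 32 in the 2-week mice, 56 and 32 in the 4-week mice). All had passed through the sort for EYFP-positive cells.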

How the results depend on the processing

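No paired analysis was possible because different mice were killed at the 2 times and the labels pair none of them. Leaving out cells of mixed content and, except for the share, keeping cells with at least 2 EYFP UMIs were chosen after seeing the data. Against MucinDuctal cells (393 higher, 26 lower), TMM scaling gave 249 and 94, thinning 644 and 13, cells with at least 2 EYFP UMIs 17 lower, and leaving out each mouse 412 to 770 higher and 29 to 158 lower. By the rule, leaving out a mouse can only keep or raise these counts. Against Acinar cells (5353 and 100), leaving enzymes out of the totals gave 1069 and 221 and TMM 592 and 459. The median over all genes reversed with TMM to -0.133 against MucinDuctal and -0.0820 against Acinar cells, as did Sox9 against MucinDuctal (-0.255) and Krt7 against Acinar cells (-0.0863). Over time (0 calls), no filter gave 81, at least 2 EYFP UMIs 2 and leaving out each mouse 0 to 230. For the MucinDuctal interaction (0), DESeq2 gave 14, no filter 171, high doublet scores left out 7, mixed content left out 2, at least 2 EYFP UMIs 14 and leaving out each mouse 0 to 557. For the Acinar interaction (17), DESeq2 gave 6, no filter 41, a fit that is not robust 8, at least 2 EYFP UMIs 53 and leaving out each mouse 5 to 283. Beyond the construction of each alternative, the cause was not tested. For single genes and medians, 939 values kept direction and side of the threshold, 69 gained and 51 lost a call, 88 moved by over 1 SD and 4 reversed; DESeq2 gave no adjusted p for Rian, Alox5ap, A4gnt and Rgs13. The share of typed cells differed by -0.588 to -0.919 percentage points over its alternatives, the share of all cells by -0.524 and that of Ductal-like plus MucinDuctal cells by -4.56. With 22 to 56 cells per mouse and 2 mice per time, a gene at few CPM in 4-week mouse 1 rests on few UMIs.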

Other observations

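The 170 duct-marker cells without an EYFP UMI differed from Ductal-like cells in few of the genes compared. Of 8949 genes, 14 (0.156%) were higher in Ductal-like cells by a log2 ratio of at least 1 in each of the 4 mice and 4 (0.0447%) were lower. The 14 were EYFP, on which the cells were chosen, A4gnt, Pga5, Pgc, Spdef, Cblif, Gkn3, Insm1, Id3, Tspan1, Rnase4, Engase, Tspan13 and Ang. The 4 were Ccnb1, a cyclin of mitosis, the trypsinogens Try5 and Prss2, and Sipa1. Spp1 differed by -0.14 ± 0.21 on the log2 scale (SD, n = 4 mice) and Cldn10 by -0.10 ± 0.42. Ambp, Cftr, Krt7 and Pkhd1 were used to choose the cells and are not compared. Gkn3 was higher in Ductal-like cells by 3.19 ± 1.99 and Pgc by 3.08 ± 1.80, with a wide spread between mice. A4gnt was at 0, 1.31, 0 and 0 CPM in the cells without EYFP and at 8.15 to 60.1 CPM in Ductal-like cells. The cells without EYFP were shallower, at a median of 16448 UMIs for all 192, and the part of depth in these differences was not tested.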
